A study of Mus musculus with 4 samples.

Results

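Venous endothelial cells of the mouse lung were taken from 4 single-cell RNA libraries by their transcripts, and numbered 1322 of 34683 cell barcodes and of 14854 endothelial cells. A cell was kept with at least 500 genes detected, at most 10% mitochondrial UMIs (unique molecular identifiers, the tags by which single RNA molecules are counted), at least 2 UMIs over the endothelial genes Pecam1, Cdh5, Cldn5, Egfl7, Ramp2 and Tie1, and none of Ptprc, Epcam, Col1a1 and Col1a2, which mark leukocytes, epithelium and fibroblasts. It was called venous with at least 3 UMIs from at least 2 of the 8 genes Slc6a2, Cpe, Tmem45a, Pgm5, Ch25h, Samd5, Car8 and Amigo2. It also had to lack Gja5, Bmx and Olfm2 (arterial), Mmrn1, Prox1 and Reln (lymphatic) and Mki67 and Top2a (cell cycle), and to hold at most 1 UMI over Prnd, C1qtnf9 and Galnt15, which mark a systemic type of vessel.

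The M3cKO PNX library came from mice of a conditional knockout that the labels call M3cKO, the Foxo1cKO PNX library from mice with a conditional knockout of Foxo1, and the WT PNX library from wild-type mice, all on day 7 after PNX, the usual abbreviation for pneumonectomy, in which part of the lung is taken out by surgery. The sham library came from wild-type mice after a sham operation. All lungs were digested with collagenase, and beads were used first to take out CD45-positive leukocytes and then to select CD31-positive endothelium. Not given in the sources used here are which gene M3 stands for, what drives the knockouts, how many animals went into a library, and the strain, age and sex of the mice. Every group is a single library, so there is no spread between animals, no test was made, and the 95% intervals below cover counting error only.

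Pulmonary veins and venules carry oxygenated blood from the capillaries to the left atrium. Their endothelium is set apart from arterial endothelium by the transcription factor NR2F2 (COUP-TFII) and low Notch activity. Venular endothelium is also the usual site at which leukocytes leave the blood, held by P-selectin (Selp), VCAM1 and ICAM1, and it stores von Willebrand factor (Vwf) for haemostasis and makes prostacyclin through PTGS2 and PTGIS.

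The promoters of 3 vein-restricted genes whose levels differed between the libraries are shown first, because their products act at the venule wall: Selp binds leukocytes, Ackr1 binds chemokines on venules, and Ptgs2 makes the prostaglandin precursor. Each is the 250 bases before the RefSeq start (GRCm38.p6), written 5′ to 3′ on the gene's own strand, with any copy of the nuclear receptor motif AGGTCA, on either strand, in capitals, which NR2F2 and its relatives can bind. Selp lies at chr1:164115014-164115263 (plus strand), Ackr1 at chr1:173333504-173333753 (minus strand) and Ptgs2 at chr1:150099781-150100030 (plus strand). RefSeq starts Ackr1 further downstream than GENCODE, whose gene coordinates are given with the values below, so this window lies mostly inside the GENCODE gene.
Selp: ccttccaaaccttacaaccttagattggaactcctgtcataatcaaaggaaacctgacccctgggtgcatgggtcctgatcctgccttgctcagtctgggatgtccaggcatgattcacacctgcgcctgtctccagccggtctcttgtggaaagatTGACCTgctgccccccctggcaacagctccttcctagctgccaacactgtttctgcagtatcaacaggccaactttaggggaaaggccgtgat
Ackr1: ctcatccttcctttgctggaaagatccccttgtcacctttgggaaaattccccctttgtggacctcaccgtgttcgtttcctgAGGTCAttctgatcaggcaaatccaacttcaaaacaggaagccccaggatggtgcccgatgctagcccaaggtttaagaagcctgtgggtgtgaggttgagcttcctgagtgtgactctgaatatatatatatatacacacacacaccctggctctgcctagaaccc
Ptgs2: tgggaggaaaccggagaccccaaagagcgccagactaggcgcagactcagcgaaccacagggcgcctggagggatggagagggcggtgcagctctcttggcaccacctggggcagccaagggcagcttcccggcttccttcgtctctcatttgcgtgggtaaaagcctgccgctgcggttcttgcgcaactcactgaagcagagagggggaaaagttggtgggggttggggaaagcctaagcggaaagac
The motif of Selp began 93 bases before the start and that of Ackr1 167 bases before it, and the window of Ptgs2 held none. The motif AGGTCA was present on either strand in 14% of 32851 mouse promoters of this length, so its presence in any single window is common. The forkhead motif GTAAACA (3.17% of all promoters) was in 0 of 11 promoters of the 20 genes that were highest in venous against other endothelial cells, and the ETS motif CCGGAA (12%) in 0 of 11, both strands searched. AGGTCA was in 1 of those 11, that of Prss23. A match or its lack describes these letters and not the binding of any factor.

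The libraries held 7617 to 9266 barcodes. After the limits on genes and mitochondrial UMIs 5543 cells remained in M3cKO PNX, 6464 in Foxo1cKO PNX, 6397 in WT PNX and 5319 in sham, and the endothelial cells among them are the totals given with the shares below. Pairs of libraries shared 68 to 111 barcodes by sequence, of which 0 or 1 belonged to venous cells in both. Venous cells in which Y-linked transcripts but no Xist were counted (male-type) were present in every library (72 to 110), whereas cells with Xist alone (female-type) numbered 97 in Foxo1cKO PNX, 92 in WT PNX, and 0 in both M3cKO PNX and sham. Neither kind of transcript was counted in 138 venous cells of M3cKO PNX, 212 of Foxo1cKO PNX, 158 of WT PNX and 259 of sham. Both were counted in 4 cells of WT PNX. Among the cells that could be typed, M3cKO PNX and sham thus held male-type cells alone, and Foxo1cKO PNX and WT PNX both types. In each comparison between libraries, operation or genotype and any other trait of a library cannot be told apart. Where WT PNX is set against sham, or M3cKO PNX against WT PNX, those traits include the sex of the animals.

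Venous cells made up a similar share of the endothelium in the 4 libraries. They numbered 215 of 2491 endothelial cells in M3cKO PNX, which is 8.63% (exact binomial interval 7.56 to 9.80). Foxo1cKO PNX held 381 (10.0%, 9.06 to 11), WT PNX 357 (9.18%, 8.29 to 10.1) and sham 369 (7.91%, 7.15 to 8.72). The intervals overlapped for every pair of libraries apart from Foxo1cKO PNX and sham. Depth differed between the libraries, with a median per venous cell of 2790.0 UMIs in M3cKO PNX, 2648 in Foxo1cKO PNX, 3320.0 in WT PNX and 2323 in sham. With every cell thinned to 2000 UMIs before the rule was applied, the share was 11.1% in M3cKO PNX, 11.7% in Foxo1cKO PNX, 11.8% in WT PNX and 10.7% in sham, and all 4 intervals overlapped. This left out 1197 shallower endothelial cells in M3cKO PNX, 1275 in Foxo1cKO PNX, 1147 in WT PNX and 2654 in sham. With cells chosen instead by at least 2 Vwf UMIs and at least 1 UMI each of Prss23 and Nr2f2, genes that the rule does not use, the share was 6.42% in M3cKO PNX, 6.38% in Foxo1cKO PNX, 6.46% in WT PNX and 4.72% in sham. By that gate the sham share was below the other 3, whose lower bounds of 5.49% to 5.70% lay above its upper bound of 5.36%. The gate needs several UMIs per cell, and sham was the shallowest library, so the part of depth in that gap was not tested.

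**Figure D1:**
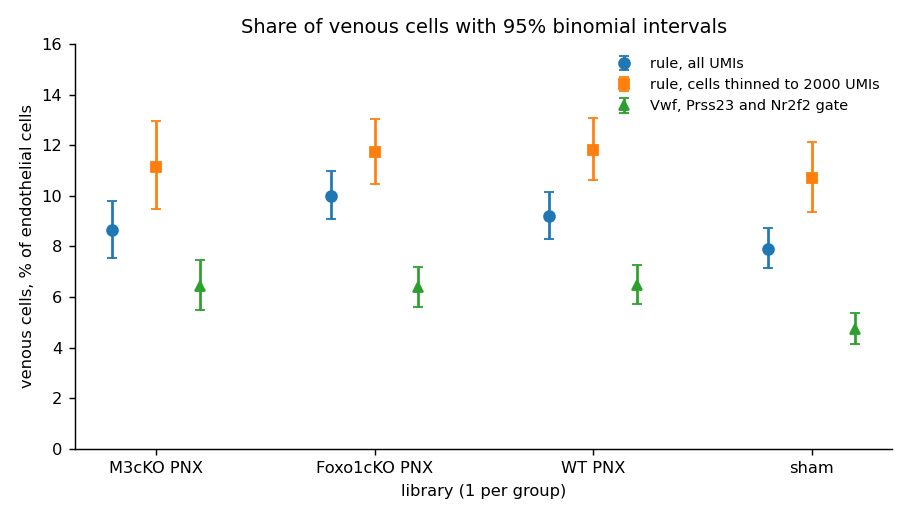
Venous cells as a percentage of endothelial cells (y axis) in each library (x axis, 1 library per group), by the rule on all UMIs, by the rule on cells thinned to 2000 UMIs, and by a gate of Vwf, Prss23 and Nr2f2, with exact 95% binomial intervals. The rule gave 7.91% to 10.0% on all UMIs and 10.7% to 11.8% after thinning.

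The 8 genes of the rule chose the cells, so their values only describe them. The median venous cell held 14 to 17 UMIs over these genes, from 4 or 5 of them, and 23.7% of venous cells in M3cKO PNX, 9.71% in Foxo1cKO PNX, 10.6% in WT PNX and 18.4% in sham rested on exactly 2. Slc6a2, the noradrenaline transporter, a known trait of pulmonary endothelium (ENSMUSG00000055368, GRCm38 chromosome 8, 92960079 to 93001667, plus strand), was at 3796 CPM in M3cKO PNX, 956 in Foxo1cKO PNX, 1084 in WT PNX and 2857 in sham. CPM is the UMIs of a gene per 1000000 UMIs summed over the venous cells of a library, 706501 in M3cKO PNX, 1221185 in Foxo1cKO PNX, 1484286 in WT PNX and 991224 in sham. Slc6a2 was therefore high in M3cKO PNX and sham and low in Foxo1cKO PNX and WT PNX. Tmem45a, a membrane protein, went the other way, at 134 CPM in M3cKO PNX, 493 in Foxo1cKO PNX, 439 in WT PNX and 230.0 in sham. Pgm5, a phosphoglucomutase relative found at cell junctions, was at 103 CPM in M3cKO PNX, 523 in Foxo1cKO PNX, 421 in WT PNX and 138 in sham, and Car8, a carbonic anhydrase relative without enzyme activity, at 130.2 CPM in M3cKO PNX, 331 in Foxo1cKO PNX, 354 in WT PNX and 195 in sham. Ch25h, which makes 25-hydroxycholesterol, varied least of the 8, at 633 CPM in M3cKO PNX, 564 in Foxo1cKO PNX, 528 in WT PNX and 589 in sham. Slc6a2, Tmem45a, Pgm5 and Car8 thus parted the pair M3cKO PNX and sham from the pair Foxo1cKO PNX and WT PNX. A cell with much Slc6a2 could pass the rule with few UMIs of the others, so these levels do not show unlike cells. The same pairs differed in sex type, with male-type cells alone among the typed cells of M3cKO PNX and sham.

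Slc6a2 was detected in 195 of 215 venous cells in M3cKO PNX (90.7%, 86.0 to 94.2), 238 of 381 in Foxo1cKO PNX (62.5%, 57.4 to 67.3), 258 of 357 in WT PNX (72.3%, 67.3 to 76.9) and 325 of 369 in sham (88.1%, 84.3 to 91.2). In cells thinned to 2000 UMIs it was 96.5% in M3cKO PNX, 50.2% in Foxo1cKO PNX, 62.0% in WT PNX and 87.4% in sham. Of the B cells, which should lack the gene, 0 of 201 had a Slc6a2 UMI in M3cKO PNX (median depth 2441 UMIs), 0.5% of 400 in Foxo1cKO PNX (2033.5 UMIs), 0.804% of 373 in WT PNX (1850.0 UMIs) and 5.41% of 37 in sham (1490.0 UMIs). The shares in venous cells lay far above this background in every library, but Slc6a2 is a gene of the rule. The gap thus describes the chosen cells and is no check of the label. Few genes set venous cells with and without Slc6a2 apart in the same way in every library. Of 1411 genes that reached 100 CPM in all 4 libraries in one set or the other, 1 was at least 2-fold higher in Slc6a2-positive cells in all 4 libraries (0.0709%) and 2 were lower (0.142%). With 20 Slc6a2-negative cells in M3cKO PNX, few genes could pass in all 4, so the low counts do not show that the sets were alike. The matrix gene Mgp differed between the sets in opposite directions: it was at 1507 CPM with Slc6a2 and 684 without it in M3cKO PNX, but at 808 with it and 2585 without it in WT PNX. The 2 lower genes in all 4 libraries were Lrrfip1 and Igfbp7, an insulin-like growth factor binding protein that was also lower in venous than in other endothelial cells; in M3cKO PNX Igfbp7 was at 267 CPM with Slc6a2 and 2459 CPM without it (20 cells), and in sham at 309.6 CPM with it and 702 without. Mgp, Lrrfip1 and Igfbp7 were chosen here after their values were seen.

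**Figure D2:**
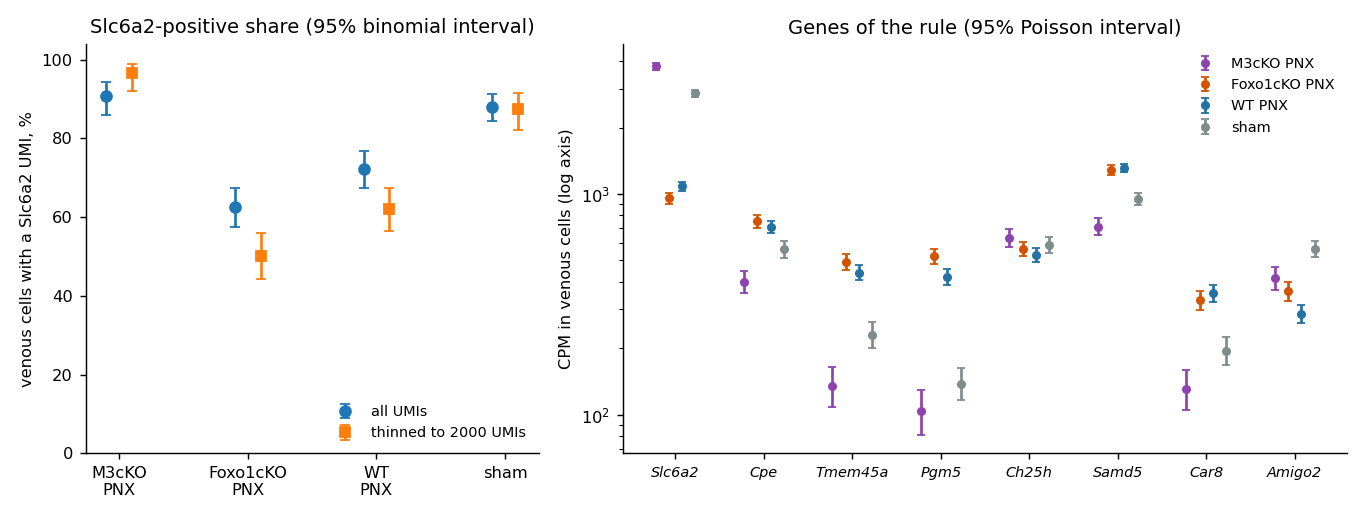
Left, the percentage of venous cells with a Slc6a2 UMI (y axis) in each library (x axis), on all UMIs and in cells thinned to 2000 UMIs, with exact 95% binomial intervals. Right, the level of each gene of the rule in venous cells in CPM (log axis) with 95% Poisson intervals; Slc6a2 was highest in M3cKO PNX and sham, and Tmem45a, Pgm5 and Car8 in Foxo1cKO PNX and WT PNX.

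At the edge of the rule, cells with exactly 3 UMIs of the rule genes from 2 or more genes (12 to 29 per library) had 2751 CPM of Vwf in M3cKO PNX, 1780.3 in Foxo1cKO PNX, 1582 in WT PNX and 2199.7 in sham. Cells that just missed it (98 to 150 per library) had 1345 CPM in M3cKO PNX, 536 in Foxo1cKO PNX, 517 in WT PNX and 697 in sham. The cells just inside were thus the more Vwf-rich in all 4 libraries. Those just outside held more Vwf than the other endothelial cells in M3cKO PNX and sham, and less in Foxo1cKO PNX and WT PNX, by the levels of those cells given below. The other endothelial cells include the cells just outside.

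The label was checked with genes outside the rule. Vwf (ENSMUSG00000001930, GRCm38 chromosome 6, 125546774 to 125686679, plus strand) was at 6067 CPM in M3cKO PNX, 6617 in Foxo1cKO PNX, 6683 in WT PNX and 7692 in sham in venous cells, against 614 CPM in M3cKO PNX, 943 in Foxo1cKO PNX, 1129.7 in WT PNX and 624 in sham in the other non-cycling endothelial cells. Prss23, a serine protease of the marker set (ENSMUSG00000039405, GRCm38 chromosome 7, 89507783 to 89527187, minus strand), was at 1619 CPM in M3cKO PNX, 1340.5 in Foxo1cKO PNX, 1220.1 in WT PNX and 1761 in sham in venous cells, against 166 CPM in M3cKO PNX, 85.3 in Foxo1cKO PNX, 86.6 in WT PNX and 111 in sham in the others. Nr2f2 (ENSMUSG00000030551, GRCm38 chromosome 7, 70351944 to 70366735, minus strand) was at 801 CPM in M3cKO PNX, 735 in Foxo1cKO PNX, 700 in WT PNX and 561 in sham in venous cells, against 86.2 CPM in M3cKO PNX, 94.7 in Foxo1cKO PNX, 106 in WT PNX and 78.6 in sham in the others. Arterial cells also held Vwf, at 1950 CPM in M3cKO PNX, 2385 in Foxo1cKO PNX, 2563 in WT PNX and 3295 in sham. They held little Prss23 (19.1 to 87.9 CPM) and Nr2f2 (0 to 35.1 CPM). All 3 were high in venous cells in every library, and the label was kept. Of 25 further venous genes listed outside the rule, 18 of 20 measured were at least 1.5-fold higher than in other endothelial cells in M3cKO PNX (background 7.92% of all measured genes), 20 of 20 in Foxo1cKO PNX (9.56%), 21 of 21 in WT PNX (8.98%) and 17 of 18 in sham (8.36%). The cells were chosen by genes that travel with these, so the counts are a description. Aerocyte genes, of the thin gas-exchange capillary cells, were lower in venous cells for 14 of 15 measured members in M3cKO PNX (background 12.3%), 14 of 15 in Foxo1cKO PNX (12.4%), 15 of 15 in WT PNX (11.9%) and 15 of 15 in sham (11.1%).

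Among 1681 genes measured in this comparison, 54 (3.21%) were at least 2-fold higher in venous than in other endothelial cells in all 4 libraries, and 69 (4.10%) lower. The genes that stood out most have a few known roles. Bst1, the surface enzyme CD157 (ENSMUSG00000029082, GRCm38 chromosome 5, 43818885 to 43843986, plus strand), was at 187 to 381 CPM in venous cells and 6.93 to 13.2 in other endothelial cells. Ptgs2 was at 283 to 832 CPM in venous cells and 14.004 to 94.1 in other endothelial cells, and Ptgis, prostacyclin synthase, at 177 to 444 CPM in venous cells and 17.2 to 27.2 in other endothelial cells. The pair of prostanoid enzymes was thus both venous in these libraries. Of the adhesion and chemokine genes, Vcam1 was at 366 to 644 CPM in venous cells and 38.7 to 87.1 in other endothelial cells, and Ackr3, a chemokine scavenging receptor, at 600.3 to 1034 CPM in venous cells and 102 to 181 in other endothelial cells. Arterial cells held Vcam1 at 105 CPM in M3cKO PNX, 182 in Foxo1cKO PNX, 44.6 in WT PNX and 354 in sham. The sham value was near the 366 CPM of venous cells there. Vegfc, a growth factor for lymphatic and venous endothelium, was at 340.0 to 375 CPM in venous cells and 50.9 to 82.1 in other endothelial cells. Lrg1, a secreted glycoprotein known from inflamed vessels, was at 908 to 1486 CPM in venous cells and 129 to 257 in other endothelial cells, and Lbp, which binds bacterial lipopolysaccharide, at 235 to 451 CPM in venous cells and 47.6 to 105 in other endothelial cells. The other genes among the 20 highest were Lhx6, Rcan1, Myof, Itgb4, Csrp2, Ctsh, Bace2, Fstl1 and Oat, with Vwf, Prss23 and Nr2f2.

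Many genes of other vessel types were low in venous cells, but not all. At 1.5-fold, arterial genes outside the rule were higher for 4 of 16 measured members and lower for 8 in each library. Systemic-type genes were higher for 3 of 4 (M3cKO PNX), 4 of 6 (Foxo1cKO PNX and WT PNX) and 3 of 5 (sham). A single systemic-type member was lower, in sham. Lymphatic genes were higher for 2 and lower for 4 of 6 in M3cKO PNX and sham, and 2 and 3 of 5 in the others. Car4, a carbonic anhydrase of aerocytes, was at 48.1 to 83.7 CPM in venous cells and 657 to 1021 in other endothelial cells. Among the latter, aerocytes held 2250 to 2688 CPM and general capillary cells 77.1 to 107, far nearer the venous level. Dll4, the Notch ligand of arteries and capillaries, was at 13.1 to 26.2 CPM in venous cells and 210.0 to 291 in other endothelial cells, and Sema3g, a semaphorin of arterial endothelium, at 77.8 to 95.8 CPM in venous cells and 842 to 957 in other endothelial cells. Ccl21a, a chemokine of lymphatic vessels, was at 0 to 16.1 CPM in venous cells and 265 to 708 in other endothelial cells, after a rule that left cells with Prox1, Mmrn1 or Reln out of the venous set. Hopx, Tbx2, Chst1, Hilpda, Igfbp7, Ptp4a3, Gnao1 and Clec1a made up the rest of the 12 lowest. Of these, Hopx, Hilpda, Igfbp7, Ptp4a3, Gnao1 and Clec1a were also lower in venous than in general capillary cells in every library. The gap for Igfbp7 was small in M3cKO PNX and sham. Chst1 was higher in venous than in general capillary cells in every library, and Tbx2 in all but Foxo1cKO PNX. At a 1.5-fold limit from 50 CPM, some immediate early genes were higher in venous than in other endothelial cells, and 0 were lower in any library. The higher members were 9 of 19 measured in M3cKO PNX (background 7.92% of all measured genes) and 10 of 18 in Foxo1cKO PNX (9.56%). They were 11 of 19 in WT PNX (8.98%) and 12 of 18 in sham (8.36%).

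**Figure D3:**
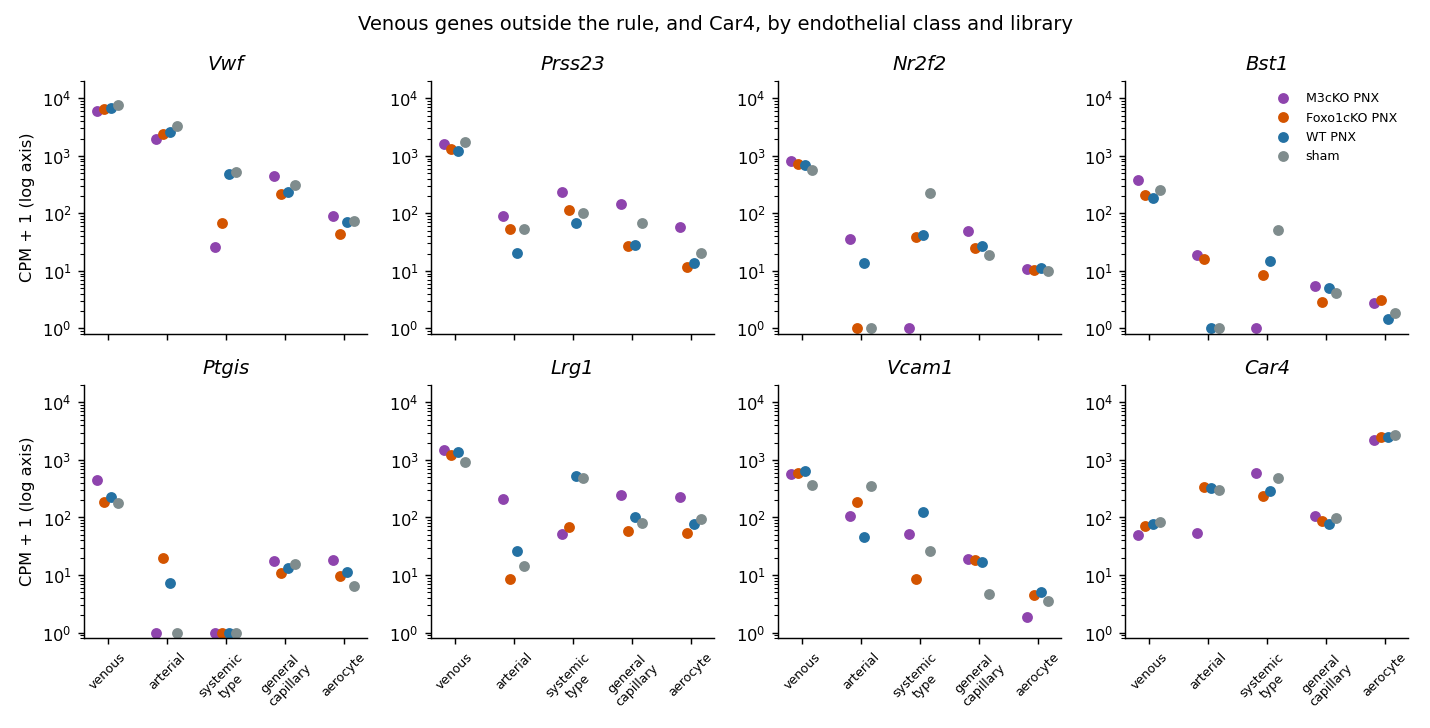
Levels of 7 venous genes outside the rule and of Car4 in CPM + 1 (log axis) in venous, arterial, systemic-type, general capillary and aerocyte cells (x axis), 1 point per library. All 7 were highest in venous cells in each library, and Car4 in aerocytes; the arterial and systemic-type classes held 17 to 85 and 15 to 31 cells per library.

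The library named for Foxo1 was checked first for that gene (ENSMUSG00000044167, GRCm38 chromosome 3, 52268336 to 52353221, plus strand), which encodes a forkhead factor held in check by growth factor signals. Its venous level was 294 CPM (256 to 337) in M3cKO PNX, 165 CPM (143 to 189) in Foxo1cKO PNX, 391 CPM (359.6 to 424) in WT PNX and 341 CPM (306 to 379) in sham. Foxo1cKO PNX was the lowest library and lay outside the intervals of the other 3, 2.37-fold (2.02 to 2.80) below WT PNX. General capillary cells held 51.2 CPM in Foxo1cKO PNX and 216 in WT PNX. Within Foxo1cKO PNX the 72 male-type venous cells held 198 CPM (152 to 254) and the 97 female-type cells 96.3 (65.4 to 137); in WT PNX the 103 male-type cells held 435 (382 to 494) and the 92 female-type cells 330.4 (275 to 394). The level left in Foxo1cKO PNX may include reads from exons that the knockout retains, and gives no share of deleted alleles. Rhoj, the small GTPase that the title of the series names (ENSMUSG00000046768, GRCm38 chromosome 12, 75308322 to 75401456, plus strand), was at 541 CPM (488 to 598) in M3cKO PNX, 411 CPM (376 to 449) in Foxo1cKO PNX, 356 CPM (326 to 387) in WT PNX and 352 CPM (316 to 391) in sham. It was highest in M3cKO PNX, 1.52-fold (1.33 to 1.74) above WT PNX, and the intervals of the other 3 overlapped. With at most 5% mitochondrial UMIs per cell, which left 13 to 35 venous cells per library, that log2 ratio was −1.46 in place of 0.60.

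Venous cells of WT PNX held more transcript of many elastic fibre and matrix genes, of Selp, Ackr1 and Vcam1, and of Ptgs2 than those of sham, and less of antigen presentation genes. Of 2054 genes that reached 100 CPM in either library, WT PNX was at least 2-fold above sham for 59 (2.87%) and as far below it for 55 (2.68%), by a rule of size and not a test (log2 ratios with a pseudocount of 5 CPM). In the 103 male-type cells of WT PNX against the 110 of sham, 79 genes were higher and 115 lower. A single WT PNX cell held 2585 of the 2657 Sftpc UMIs (97.3%) of the venous cells of that library, Sftpc being the surfactant gene of alveolar epithelium, and without it 51 genes were higher and 55 lower. The median log2 ratio of 3901 genes at 50 CPM or more was 0.01.

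Elastic fibre and matrix genes formed the largest group. At a 1.5-fold limit, which 8.31% of all measured genes passed upward and 8.38% downward, 12 of 22 measured members were at least 1.5-fold higher and 3 lower (median log2 ratio 0.73); in general capillary cells the median of the same genes was 0.65. Eln, tropoelastin (ENSMUSG00000029675, GRCm38 chromosome 5, 134702593 to 134747323, minus strand), was at 1054 CPM in M3cKO PNX, 2872 in Foxo1cKO PNX, 2269.8 in WT PNX and 486 in sham in venous cells. The PNX libraries were all above sham, and WT PNX was 4.67-fold (4.24 to 5.15) above it; general capillary cells held 228 CPM in WT PNX and 124 in sham. Fbln5, a fibulin that helps assemble elastic fibres, was at 463 CPM in M3cKO PNX, 1132 in Foxo1cKO PNX, 1267 in WT PNX and 423 in sham, high in Foxo1cKO PNX and WT PNX alone. Col15a1, a basement membrane collagen, was at 228 CPM in M3cKO PNX, 423 in Foxo1cKO PNX, 478 in WT PNX and 86.8 in sham, which is 5.51-fold (4.40 to 6.98) higher in WT PNX than in sham. Fbln2, another fibulin, was at 28.3 CPM in M3cKO PNX, 337 in Foxo1cKO PNX, 217 in WT PNX and 25.2 in sham, and Col18a1, the endostatin collagen, at 52.4 CPM in M3cKO PNX, 278 in Foxo1cKO PNX, 229 in WT PNX and 61.5 in sham. Mgp, an inhibitor of calcification, was at 1427 CPM in M3cKO PNX, 1426 in Foxo1cKO PNX, 1332 in WT PNX and 428 in sham, low in sham alone. Bgn, biglycan, went the other way, at 561 CPM in WT PNX against 973 CPM in sham, but in Slc6a2-negative cells alone it was higher in WT PNX, at 694 CPM against 428 CPM in sham. The summed level of 10 fibroblast markers in venous cells was 18.4 CPM in M3cKO PNX, 282 in Foxo1cKO PNX, 160 in WT PNX and 44.4 in sham, with 4 to 7 of 10 detected per library and Lum at 0 in all 4; Col3a1 alone was at 4.25 CPM in M3cKO PNX, 249 in Foxo1cKO PNX, 55.9 in WT PNX and 10.1 in sham. The part of carried fibroblast RNA in the matrix result was not tested, and cells with Col1a1 or Col1a2 UMIs had been left out by the rule.

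Of the genes by which venules hold leukocytes, 6 of 19 measured members were at least 1.5-fold higher and 3 lower (median log2 ratio 0.22). Selp (ENSMUSG00000026580, GRCm38 chromosome 1, 164115264 to 164150026, plus strand) was at 919 CPM (849 to 992) in M3cKO PNX, 544 CPM (503 to 587) in Foxo1cKO PNX, 849.6 CPM (803 to 898) in WT PNX and 360.2 CPM (324 to 399.5) in sham. It was low in sham and highest in M3cKO PNX and WT PNX, whose intervals overlapped, and WT PNX was 2.36-fold (2.10 to 2.66) above sham. Ackr1 (ENSMUSG00000037872, GRCm38 chromosome 1, 173331886 to 173333750, minus strand) was at 48.1 CPM (33.3 to 67.2) in M3cKO PNX, 109 CPM (91.2 to 129) in Foxo1cKO PNX, 340.2 CPM (311 to 371) in WT PNX and 41.4 CPM (29.7 to 56.1) in sham. WT PNX stood alone, 8.23-fold (5.98 to 11.6) above sham, where 41 UMIs were counted and a single cell held 36.6% of them. Vcam1 was at 644 CPM in WT PNX against 366 CPM in sham, a 1.76-fold (1.56 to 1.99) difference, and Sele, E-selectin, at 70.7 CPM in WT PNX against 18.2 CPM in sham. The promoters of Selp and Ackr1 printed above both hold AGGTCA, and the 2 genes had unlike orders over the 4 libraries.

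Of the venous list outside the rule 8 of 21 measured members were higher in WT PNX and 1 lower (median log2 ratio 0.32). Coagulation and fibrinolysis genes were higher for 7 of 14 measured members and lower for 0 (median log2 ratio 0.41). Procr, the endothelial protein C receptor, was at 95.7 CPM in WT PNX against 42.4 CPM in sham, and Entpd1, which clears extracellular ATP and ADP, at 303 CPM in WT PNX against 162 CPM in sham. Vwf itself was slightly lower, at 6683 CPM in WT PNX against 7692 CPM in sham. Among prostanoid and vasoactive genes 3 of 13 were higher and 1 lower. Ptgs2 (ENSMUSG00000032487, GRCm38 chromosome 1, 150100031 to 150108227, plus strand) was at 283 CPM (245 to 325) in M3cKO PNX, 622 CPM (578 to 667) in Foxo1cKO PNX, 832 CPM (786 to 879.8) in WT PNX and 406 CPM (367 to 447) in sham, 2.05-fold (1.83 to 2.30) higher in WT PNX than in sham; under TMM scaling the log2 ratio was 0.99 and in male-type cells alone 0.82, below the 2-fold limit. Nos3, endothelial nitric oxide synthase, was at 264 CPM in WT PNX against 121 CPM in sham (2.18-fold, 1.77 to 2.70), and 0.87 on the log2 scale in thinned cells. Among the immediate early genes 3 of 19 were higher and 0 lower, with Fosb at 890.0 CPM in WT PNX against 275 CPM in sham.

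Antigen presentation genes were lower in WT PNX. All 5 measured class II members were at least 1.5-fold lower (median log2 ratio −1.77, and −1.15 in general capillary cells), and 10 of 15 class I members were lower and 0 higher (median −0.64). H2-Eb1, a class II beta chain (ENSMUSG00000060586, GRCm38 chromosome 17, 34305867 to 34316674, plus strand), was at 238 CPM (203 to 277) in M3cKO PNX, 49.95 CPM (38.2 to 64.2) in Foxo1cKO PNX, 31.7 CPM (23.3 to 42.1) in WT PNX and 490.3 CPM (448 to 536) in sham. Sham was the highest library, M3cKO PNX lay between, and WT PNX was 15.5-fold (11.5 to 21.4) below sham. Cd74, the invariant chain of class II, was at 279 CPM in M3cKO PNX, 129 in Foxo1cKO PNX, 93.6 in WT PNX and 615 in sham, in the same order. H2-T23, a non-classical class I gene, was at 385 CPM in WT PNX against 1453 CPM in sham, and H2-Q7 at 235 CPM in WT PNX against 926 CPM in sham; H2-Q6 and H2-Q7 are near-identical copies whose reads may be split between them, so their single values are uncertain. The summed level of 14 blood cell markers in venous cells was 359 CPM in WT PNX and 95.8 in sham, and its part in the class II values was not tested. Of the interferon response genes 2 of 23 were higher (Ifi204 and Gbp9) and 9 lower, with Igtp, an interferon-induced GTPase, at 48.5 CPM in WT PNX against 187 CPM in sham.

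Other genes named by size were Pdlim3, Cmah, Scd2, Tnfaip3 and Mctp1, higher in WT PNX, and Cyp4b1, Rplp1 and Rnaset2b, lower. Rplp1 is a ribosomal protein gene. Scd2, a fatty acid desaturase, was at 183 CPM in WT PNX against 38.3 CPM in sham, within a lipid list of 6 higher and 5 lower of 16. Tnfaip3, an inhibitor of NF-kappa-B signals, was at 135 CPM in WT PNX against 29.3 CPM in sham. Cyp4b1, a cytochrome P450 abundant in lung, was at 68.7 CPM in WT PNX against 390.4 CPM in sham. Lyve1, a hyaluronan receptor best known from lymphatic vessels and also present in lung veins, was at 6507 CPM in M3cKO PNX, 2431 in Foxo1cKO PNX, 2630.2 in WT PNX and 4806 in sham in venous cells. It was high in M3cKO PNX and sham and low in Foxo1cKO PNX and WT PNX, the order of Slc6a2. The libraries also parted in this way by the sex type of their cells. Of the FOXO list 0 of 13 were higher and 4 lower, among them Txnip, a thioredoxin inhibitor, at 264 CPM in WT PNX against 675 CPM in sham. Of 18 Notch and vascular specification genes 0 were higher and 3 lower.

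**Figure D4:**
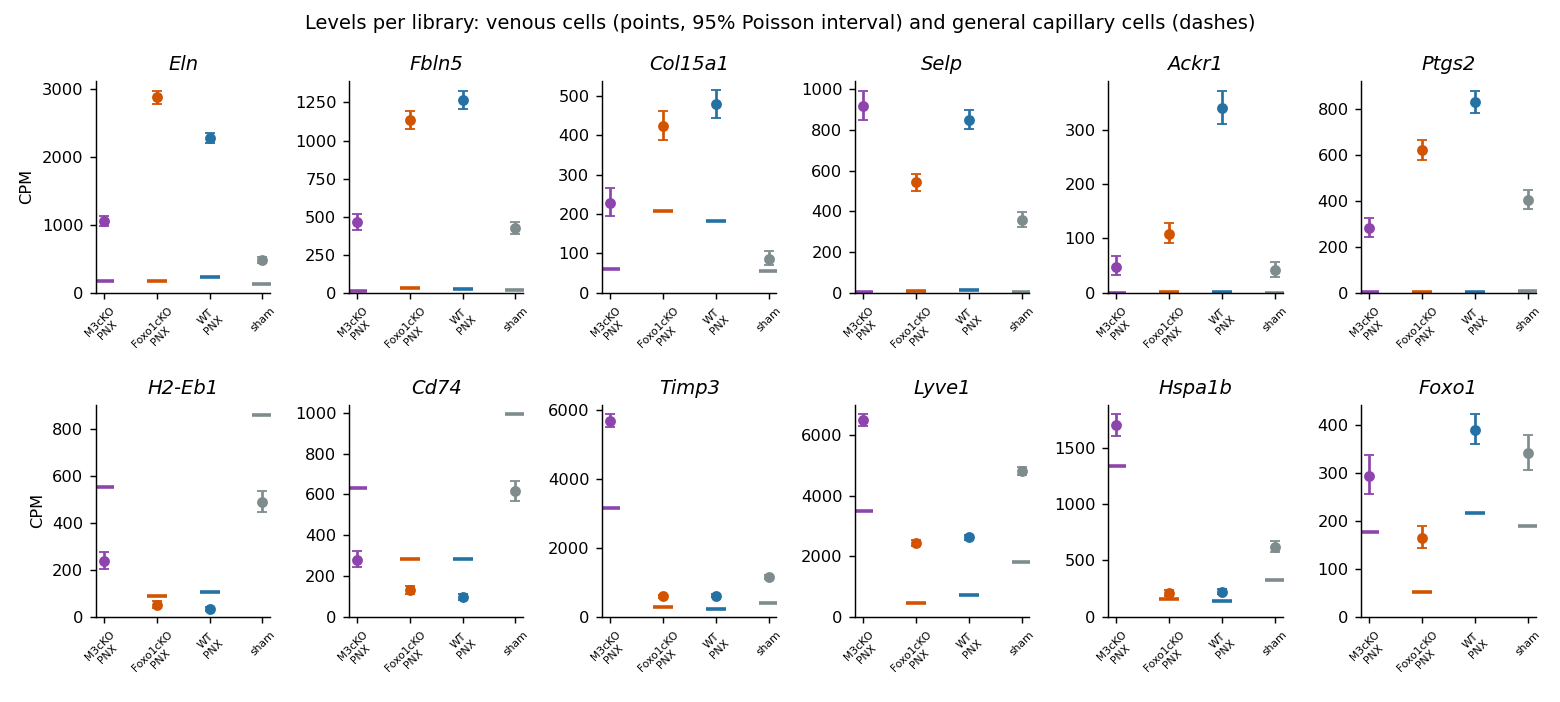
Level of 12 genes in CPM (y axis, from 0) in each library (x axis), as points with 95% Poisson intervals for venous cells and as dashes for general capillary cells. Eln, Fbln5 and Col15a1 were highest in Foxo1cKO PNX or WT PNX, H2-Eb1 and Cd74 in sham, and Timp3, Lyve1 and Hspa1b in M3cKO PNX; Selp, Ackr1 and Ptgs2 were near 0 in general capillary cells.

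Between M3cKO PNX and WT PNX, heat shock and circadian clock genes and Timp3 were higher in venous cells of M3cKO PNX, and matrix genes, Ackr1 and Ptgs2 lower. Of 2032 genes 92 (4.53%) were at least 2-fold higher and 69 (3.40%) at least 2-fold lower. The split depended on scaling: with TMM factors it was 120 higher and 52 lower, and with DESeq2 size factors 123 and 50. The median log2 ratio over all measured genes was −0.08 with plain totals, 0.07 with TMM and 0.08 with DESeq2 factors, a shift of over 0.1 that applies to each ratio below. In the 77 male-type cells of M3cKO PNX against the 103 of WT PNX, 101 genes were higher and 75 lower. WT PNX stands on one side of all 3 comparisons, so they are not independent of each other.

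Timp3, an inhibitor of matrix metalloproteinases (ENSMUSG00000020044, GRCm38 chromosome 10, 86300372 to 86349506, plus strand), was at 5699 CPM (5524 to 5877) in M3cKO PNX, 585 CPM (543 to 629) in Foxo1cKO PNX, 601 CPM (562 to 642) in WT PNX and 1149 CPM (1083 to 1218) in sham. M3cKO PNX was 9.48-fold (8.82 to 10.2) above WT PNX, and general capillary cells held 3171 CPM in M3cKO PNX and 213 in WT PNX, so that the difference was not restricted to veins. In cells with at most 5% mitochondrial UMIs the log2 ratio was 0.72 in place of 3.23. Of 7 measured clock genes 7 were at least 1.5-fold higher (backgrounds 9.14% upward and 12.5% downward; median log2 ratio 2.24, 1.91 in general capillary cells). Dbp, a clock output factor, was at 103 CPM in M3cKO PNX against 7.41 CPM in WT PNX, and Nr1d1, the repressor REV-ERB alpha, at 174 CPM in M3cKO PNX against 16.2 CPM in WT PNX. The hour at which the lungs were taken is not given in the sources used here. Of 14 heat shock genes 8 were higher and 0 lower (median 0.90). Hspa1b, an inducible HSP70 (ENSMUSG00000090877, GRCm38 chromosome 17, 34956436 to 34959238, minus strand), was at 1706 CPM in M3cKO PNX, 208 in Foxo1cKO PNX, 220.3 in WT PNX and 621 in sham; it is a near copy of Hspa1a, so the split between them is uncertain. Hspa8, the constitutive HSP70, was at 3166 CPM in M3cKO PNX against 1560.3 CPM in WT PNX.

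Of the matrix list 1 of 22 measured members was higher, Timp3, and 11 were lower (median log2 ratio −0.33; −0.38 in general capillary cells). Fbln2 was at 28.3 CPM in M3cKO PNX against 217 CPM in WT PNX (7.66-fold, 4.88 to 12.7 lower), Fbln5 at 463 CPM in M3cKO PNX against 1267 CPM in WT PNX (2.74-fold, 2.43 to 3.09) and Eln at 1054 CPM in M3cKO PNX against 2269.8 CPM in WT PNX (2.15-fold, 1.99 to 2.33). The Eln ratio was below the 2-fold limit in male-type cells alone, with a log2 ratio of −0.79, in Slc6a2-positive cells alone (−0.89) and with TMM scaling (−0.96). Mgp and Selp, both higher in WT PNX than in sham, were close in M3cKO PNX and WT PNX over all venous cells, with M3cKO PNX to WT PNX ratios of 1.07-fold (0.992 to 1.16) and 1.08-fold (0.982 to 1.19). For Mgp this joins opposite differences in the 2 sets, with a log2 ratio of 0.90 in Slc6a2-positive cells and −1.91 in Slc6a2-negative cells. The fibroblast marker sum was lower in M3cKO PNX than in WT PNX, as given above.

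Of the venous list outside the rule 4 of 22 were higher and 5 lower (median log2 ratio −0.08), and among adhesion genes 2 of 17 were higher and 5 lower. Ackr1 was 7.07-fold (4.99 to 10.3) lower in M3cKO PNX, and Il6st, the shared receptor subunit gp130 of the interleukin-6 family, was at 1050.2 CPM in M3cKO PNX against 2817 CPM in WT PNX, 2.68-fold (2.48 to 2.90) lower. Icam1, on the other hand, was at 2300.1 CPM in M3cKO PNX against 1172 CPM in WT PNX, though in Slc6a2-negative cells alone it was lower, at 451 CPM in M3cKO PNX against 1189.7 CPM in WT PNX. Bst1 was at 381 CPM in M3cKO PNX against 187 CPM in WT PNX. The 2 prostanoid enzymes that marked venous cells parted: Ptgs2 was 2.94-fold (2.53 to 3.43) lower in M3cKO PNX and Ptgis 2.00-fold (1.71 to 2.34) higher. In male-type cells alone the Ptgs2 log2 ratio was −0.98 in place of −1.54. Bmp4, a secreted bone morphogenetic protein, was at 149 CPM in M3cKO PNX against 479.7 CPM in WT PNX, and Adgrg6, an adhesion receptor, at 129 CPM in M3cKO PNX against 441 CPM in WT PNX. Both were lower in M3cKO PNX, by 3.23-fold (2.63 to 4.00) and 3.43-fold (2.75 to 4.31).

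Lipid handling genes were lower for 6 of 15 and higher for 2. Fabp4, a fatty acid carrier of venous and capillary endothelium, was at 245 CPM in M3cKO PNX against 837 CPM in WT PNX (3.42-fold, 2.91 to 4.03 lower; log2 ratio −0.78 in male-type cells alone, in place of −1.75). Fabp5, a related carrier, was at 42.5 CPM in M3cKO PNX against 200.1 CPM in WT PNX. Class II genes were higher for 4 of 4 measured members, with H2-Eb1 at 238 CPM in M3cKO PNX against 31.7 CPM in WT PNX, and FOXO genes for 5 of 14 with 1 lower, among them Txnip at 575 CPM in M3cKO PNX against 264 CPM in WT PNX and Tsc22d3, a glucocorticoid-induced factor, at 522 CPM in M3cKO PNX against 176 CPM in WT PNX. Fkbp5, another gene induced by glucocorticoids, was at 208 CPM in M3cKO PNX against 35.0 CPM in WT PNX. Krt80, Adamtsl4, Nr1d2 and Sema7a were the other named genes that were higher, and Pdlim3, Scd2, Aplnr, Gbp9, Nuak1 and Col18a1 those that were lower. Pdlim3 rested on 4 UMIs in M3cKO PNX. Of the list of Rhoj and the Cdc42 branch 4 of 16 were higher and 2 lower.

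Foxo1cKO PNX venous cells differed least from WT PNX, in the only comparison whose libraries both held male-type and female-type cells. Of 1973 genes 4 (0.203%) were at least 2-fold higher and 14 (0.710%) at least 2-fold lower. Without the WT PNX cell that carried Sftpc, 4 were higher and 6 lower. In the 72 male-type cells of Foxo1cKO PNX against the 103 of WT PNX, 43 were higher and 18 lower. Cdh13, T-cadherin, an adhesion molecule and adiponectin receptor (ENSMUSG00000031841, GRCm38 chromosome 8, 118283733 to 119324921, plus strand), was at 65.1 CPM (47.7 to 86.8) in M3cKO PNX, 224 CPM (199 to 253) in Foxo1cKO PNX, 57.9 CPM (46.3 to 71.6) in WT PNX and 84.7 CPM (67.6 to 105) in sham. Foxo1cKO PNX was 3.87-fold (3.03 to 4.99) above WT PNX and above every other library, and in general capillary cells Cdh13 was near the floor, at 5.58 CPM in Foxo1cKO PNX and 5.71 in WT PNX. The other genes that were higher were Igtp, at 112 CPM in Foxo1cKO PNX against 48.5 CPM in WT PNX, Ifi27l2a, an interferon-induced gene, at 135 CPM in Foxo1cKO PNX against 51.2 CPM in WT PNX, and Col3a1, a fibroblast collagen whose levels are given above; both of the last were over 5-fold as high in leukocytes, epithelial cells or fibroblasts.

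Of the interferon response list 8 of 22 measured members were at least 1.5-fold higher in Foxo1cKO PNX and 1 lower, where 1.63% of all measured genes were higher and 2.00% lower (median log2 ratio 0.39, 0.25 in general capillary cells). Ifit1, which binds viral RNA, was at 72.2 CPM in M3cKO PNX, 130.2 in Foxo1cKO PNX, 65.4 in WT PNX and 66.6 in sham, and Isg15, a ubiquitin-like modifier, at 9.91 CPM in M3cKO PNX, 54.0 in Foxo1cKO PNX, 22.2 in WT PNX and 31.3 in sham. Both were highest in Foxo1cKO PNX, as they were in the other endothelial cells of that library, where Ifit1 was at 132 CPM, against 69.9 in those of WT PNX. The member that was lower was Ifi204, with 0 UMIs in either knockout library, 115 CPM in WT PNX and 1.01 in sham. Against a floor of 3 counts in the library it was at least 46.9-fold lower in Foxo1cKO PNX, and at least 27.1-fold lower in M3cKO PNX, with WT PNX as the base. Ifi204 belongs to a family of similar genes on chromosome 1, so its count in WT PNX is uncertain.

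Genes that were lower in Foxo1cKO PNX included Ackr1, 3.12-fold (2.58 to 3.81) below WT PNX, and Fosb, at 355 CPM in Foxo1cKO PNX against 890.0 CPM in WT PNX (2.51-fold, 2.25 to 2.80). Selp was 1.56-fold (1.42 to 1.72) lower. The adhesion list as a whole held 0 of 17 members higher and 2 lower, the venous list outside the rule 0 of 21 and 3, and coagulation genes 0 of 14 and 3. Of 14 FOXO genes 1 was higher and 2 lower, Foxo1 and Insr, the insulin receptor, which was at 78.6 CPM in Foxo1cKO PNX against 121 CPM in WT PNX. Matrix genes were close in the 2 libraries, with 2 of 22 higher and 1 lower; Eln was 1.27-fold (1.21 to 1.33) higher and Fbln5 1.12-fold (1.04 to 1.20) lower. Of 17 Notch and vascular specification genes none was 1.5-fold apart. Vwf, Nr2f2 and Ephb4, which mark venous fate, had ratios of 0.990-fold (0.961 to 1.02), 1.05-fold (0.960 to 1.15) and 0.982-fold (0.892 to 1.08).

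**Figure D5:**
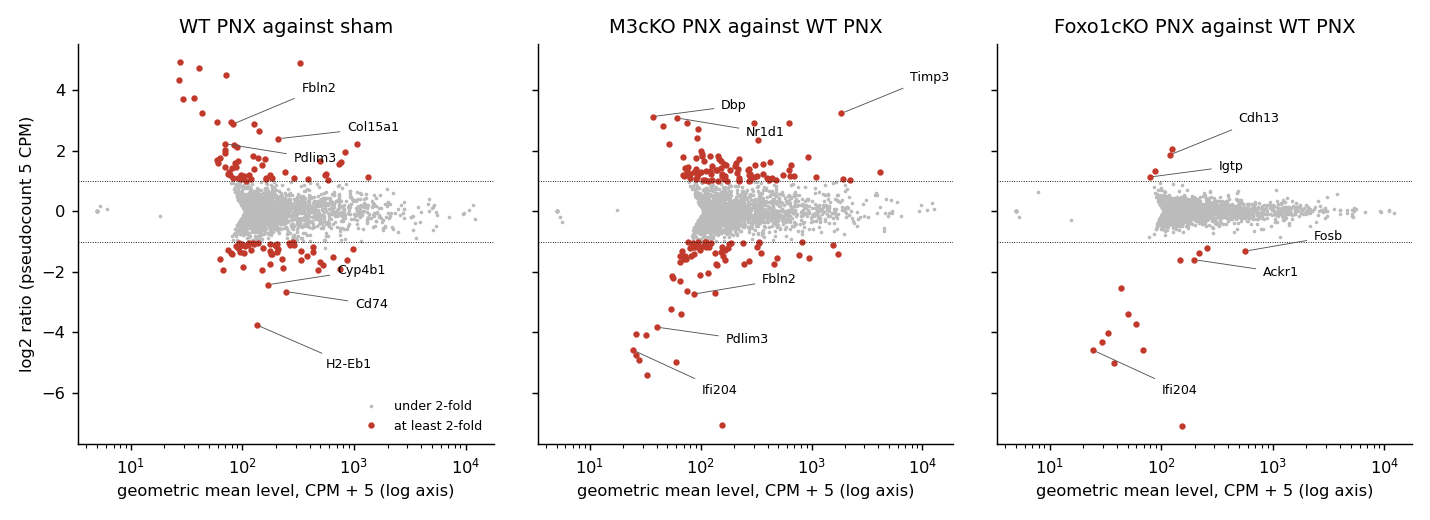
Log2 ratio in venous cells (y axis, pseudocount 5 CPM) against the geometric mean level of the 2 libraries (x axis, log) for each gene measured, with genes at least 2-fold apart in red and dotted lines at that limit. There were 59 higher and 55 lower genes in WT PNX against sham, 92 and 69 in M3cKO PNX against WT PNX, and 4 and 14 in Foxo1cKO PNX against WT PNX; the unlabelled points far below 0 in the last 2 panels and far above it in the first include the surfactant genes of 1 WT PNX cell.

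Because Slc6a2-positive cells took unlike shares of the libraries, the comparisons were repeated with Slc6a2-positive and Slc6a2-negative venous cells taken apart. In Slc6a2-positive cells alone 54 genes were higher and 54 lower in WT PNX against sham, and 90 higher and 65 lower in M3cKO PNX against WT PNX, close to the counts over all venous cells. Slc6a2-positive cells held 637779 of 706501 venous UMIs in M3cKO PNX, 1046362 of 1484286 in WT PNX and 855833 of 991224 in sham. Both sets of counts thus rest largely on the same UMIs, and their closeness is no separate check. The log2 ratio of Eln, WT PNX to sham, was 2.07 in Slc6a2-positive cells and 2.64 in Slc6a2-negative cells. That of Ackr1, M3cKO PNX to WT PNX, was −2.59 in Slc6a2-positive cells and −2.74 in Slc6a2-negative cells. Other genes turned: Bgn in WT PNX against sham was at −1.06 in Slc6a2-positive and 0.69 in Slc6a2-negative cells, and Icam1 in M3cKO PNX against WT PNX at 1.10 in Slc6a2-positive and −1.39 in Slc6a2-negative cells. The Slc6a2-negative sets were themselves unlike between libraries. Kit, a general capillary gene, was at 349 CPM in M3cKO PNX (20 cells), 174 in WT PNX and 458 in sham (44 cells) without Slc6a2. With Slc6a2, Kit was at 111, 117 and 85.3 CPM in that order. Aplnr, also a general capillary gene, was at 0 CPM without Slc6a2 and 26.7 with it in M3cKO PNX. Without and with Slc6a2 it was at 128 and 143 CPM in WT PNX, and at 259 and 70.1 CPM in sham. Aplnr thus went the same way as Kit in sham, but not in M3cKO PNX or WT PNX. How far the turned ratios compare unlike cells was not tested. In Slc6a2-negative cells alone, 187 genes were higher and 245 lower in WT PNX against sham, and 339 and 255 in M3cKO PNX against WT PNX, from far fewer UMIs. The log2 ratio of Selp, WT PNX to sham, was 0.96 in Slc6a2-positive cells, just under the limit, and 1.91 in the others.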

How the data were processed

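Single-cell RNA of CD31-selected mouse lung cells was read in 4 libraries, 1 per group. The deposited files hold raw UMI counts per gene and barcode for 32285 genes, made by the authors with Cell Ranger 2.1.1 on mm10, per the labels' protocols, while version 3.0.0 stands in the matrices, per the file headers; the submitters' processing notes name Cell Ranger and R 3.4.4. How barcodes were filtered is not given in the sources used here. The libraries held 16197681 to 30445999 UMIs, and the sums over venous cells 706501 to 1484286.

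Cells were chosen by the rule given above, and counts were summed per library and expressed per 1000000. Levels have exact Poisson intervals, ratios exact conditional binomial intervals and shares Clopper-Pearson intervals, all at 95% and for counting error only. A gene was called apart at 2-fold with a pseudocount of 5 CPM, where the higher library reached 100 CPM; members of gene lists were counted at 1.5-fold from 50 CPM. Rule genes were left out of both. Named genes were the 10 with the largest ratio in each direction per comparison between libraries whose interval excluded 1. For venous against other cells they were the 20 highest and 12 lowest, with no limit on the interval. Left out were mitochondrial, ribosomal, haemoglobin, immunoglobulin and sex-linked genes, and genes over 5-fold as high in leukocytes, epithelium or fibroblasts. Ribosomal genes were found by a pattern in their names, which missed Rplp1. Genes with over 25% of their UMIs in 1 cell were also left out, except among the 12 lowest. Up to 4 genes were added per list. The other genes named, such as Ackr1 and Col3a1, were chosen after their values were seen. Some genes that the rule or the comparisons gave are not reported here. The cells and the lists were chosen with earlier results of these data known. Other endothelial cells are the non-venous, non-cycling ones, and general capillary cells (5432) are a subset of them chosen by marker genes. The other endothelial cells are a mixed set that includes cells which just missed the venous rule. In WT PNX, for example, Ptgs2 was at 94.1 CPM in them, but at 2.45 in general capillary cells and 1.84 in aerocytes.

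Doublets were kept, and removed in an alternative from Scrublet scores (scanpy 1.11.5). TMM factors came from edgeR 4.0.16 and size factors from DESeq2 1.42.0, as alternatives. On simulated counts (1895 to 1922 genes per comparison), 50 of 50 genes planted at 3-fold higher and 50 of 50 at 3-fold lower were called in each comparison, and 0 of 100 planted at 1.5-fold. The counts were Poisson draws, and changes were planted only in genes well above the floor of 100 CPM. The check therefore does not cover genes near the floor or genes with many UMIs in 1 cell. Python 3.11.15, numpy 2.4.6, scipy 1.17.1, pandas 2.3.3 and R 4.3.3 were used.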

Additional observations from a re-analysis of the deposited data

How the results depend on the processing

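No paired analysis was possible because each group was 1 library. Left out by the same fact are any spread between animals and any test. Of the log2 ratios of named genes under the alternatives, 1944 kept their direction and stayed within counting error, 580 moved beyond it and 10 reversed; of the list medians 863 stayed, 38 moved and 1 reversed. The cause was not tested unless given.

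At most 5% mitochondrial UMIs left 13 venous cells in M3cKO PNX, 27 in Foxo1cKO PNX, 27 in WT PNX and 35 in sham, so that few UMIs stand behind its values. The share was 2.14% in M3cKO PNX, 3.11% in Foxo1cKO PNX, 3.31% in WT PNX and 3.55% in sham. It called 329 genes higher and 317 lower in WT PNX against sham, 664 and 466 in M3cKO PNX against WT PNX, and 370.0 and 325 in Foxo1cKO PNX against WT PNX. Log2 ratios reversed there for Scd2 (−0.51), Hspa1b (0.14) and Sparc (−0.094) in WT PNX against sham, and for Nr1d2 (−1.89), Rhoj (−1.46) and Sparc (1.06) in M3cKO PNX against WT PNX.

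The share was 11.1% in M3cKO PNX, 11.7% in Foxo1cKO PNX, 11.8% in WT PNX and 10.7% in sham in thinned cells, 6.38%, 8.79%, 8.13% and 6.32% for those libraries with at least 4 UMIs from 3 rule genes, and 6.42%, 6.38%, 6.46% and 4.72% by Vwf, Prss23 and Nr2f2. For Foxo1cKO PNX against WT PNX, thinned cells gave 7 higher and 9 lower genes, the stricter rule 6 lower, equal weight per cell 2 higher and 8 lower, Slc6a2-positive cells 7 and 8, male-type cells 43 higher, and the set without cells of 100 or more Sftpc UMIs 6 lower. A floor of 50 CPM gave 109 higher genes in WT PNX against sham, 139 higher and 139 lower in M3cKO PNX against WT PNX, 8 higher in Foxo1cKO PNX against WT PNX, and 87 higher in venous cells. With no floor but 3 UMIs the counts were 354 and 223, 266 and 657, and 59 and 88 for the 3 comparisons in that order, higher first. Slc6a2-negative cells alone (20 in M3cKO PNX) gave 187 and 245, 339 and 255, and 17 and 35. In male-type cells 115 genes were lower in WT PNX against sham. The median log2 ratio of all genes in M3cKO PNX against WT PNX was 0.07 with TMM, 0.08 with DESeq2 factors and 0.05 in Slc6a2-negative cells, beside −0.08.

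Male-type cells alone reversed Egr1 (−0.35, WT PNX against sham) and the median of the systemic-type list (0.059, M3cKO PNX against WT PNX). Slc6a2-negative cells alone reversed Bgn (0.69, WT PNX against sham), Icam1 (−1.39) and Sparc (0.30, both M3cKO PNX against WT PNX).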

Other observations

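Single genes, among them Bmp4 named above, also differed between the libraries. Klf2 and Klf4, shear-responsive transcription factors of endothelium, parted: Klf2 was at 2144 CPM in M3cKO PNX, 3013 in Foxo1cKO PNX, 3009.5 in WT PNX and 3465 in sham, lowest in M3cKO PNX, whereas Klf4 was at 2549 CPM in M3cKO PNX, 1766 in Foxo1cKO PNX, 1818 in WT PNX and 2757 in sham, highest in M3cKO PNX and sham. Of the BMP and TGF-beta list, 4 of 16 measured members were at least 1.5-fold higher and 3 lower in WT PNX against sham (backgrounds 8.31% upward and 8.38% downward). The median log2 ratio of the list was −0.09, so it had no common direction. Bmp4 was at 149 CPM in M3cKO PNX, 518 in Foxo1cKO PNX, 479.7 in WT PNX and 260.3 in sham, and Bmp6, a related ligand, at 153 CPM in M3cKO PNX, 191 in Foxo1cKO PNX, 209.5 in WT PNX and 378 in sham. The 2 ligands thus had opposite orders in WT PNX and sham. Pltp, the phospholipid transfer protein, was at 920.0 CPM in M3cKO PNX, 442 in Foxo1cKO PNX, 488 in WT PNX and 1488 in sham. Hspb1, a small heat shock protein, was at 620.0 CPM in M3cKO PNX, 139 in Foxo1cKO PNX, 207 in WT PNX and 519.6 in sham. Both were higher in M3cKO PNX and sham than in Foxo1cKO PNX and WT PNX, pairs that also differed in the sex type of their cells. The Notch receptor gene Notch4 was at 319.9 CPM in M3cKO PNX, 157 in Foxo1cKO PNX, 147 in WT PNX and 203 in sham, highest in M3cKO PNX.

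The other lists gave the following counts of members at least 1.5-fold apart, beside the backgrounds given above. In WT PNX against sham, arterial genes outside the rule were higher for 3 of 14 and lower for 3, aerocyte genes for 2 and 1 of 11, general capillary genes for 0 and 5 of 15, systemic-type genes for 2 and 0 of 6, lymphatic genes for 0 and 1 of 3, angiocrine ligands for 3 and 1 of 11, S phase genes for 2 and 0 of 6, glycolysis genes for 2 and 0 of 9, and heat shock genes for 1 and 4 of 15. In M3cKO PNX against WT PNX, the arterial list had 1 higher and 3 lower of 14, the general capillary list 3 and 2 of 15, the aerocyte list 3 and 4 of 11, the class I list 4 and 2 of 14, the interferon list 2 and 6 of 20, and the immediate early list 3 and 2 of 19. In Foxo1cKO PNX against WT PNX, class I genes had 2 higher and 0 lower of 14, heat shock genes 0 and 2 of 13, immediate early genes 0 and 2 of 19, and the list of Rhoj and the Cdc42 branch 0 and 0 of 16.

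Markers of other cells were present at low sums in venous cells. The 11 mural markers summed to 150.0 CPM in M3cKO PNX, 115 in Foxo1cKO PNX, 55.2 in WT PNX and 195 in sham, with Cspg4 and Higd1b at 0 in all 4. The 10 markers of the cardiomyocytes that sheathe pulmonary veins summed to 8.49 to 23.2 CPM, with Myh6, Tnnt2 and Nppa at 0 in every library, and the 5 mesothelial markers to 0 to 0.819 CPM. Epithelial markers summed to 119 CPM in M3cKO PNX, 109 in Foxo1cKO PNX, 1942 in WT PNX and 219 in sham, where the high WT PNX value rests on the single cell with Sftpc described above.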
